A study of Sus scrofa with 18 samples.

Results

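The Wnt ligands, their receptors and the secreted proteins that modulate them were examined in pig myometrium, the muscular wall of the uterus. The genes were taken by symbol from the deposited expression table: every gene named WNT, FZD, SFRP, DKK or RSPO with a number, and in addition FRZB, WIF1, NOTUM, LRP5, LRP6, ROR1, ROR2, LGR4, LGR5, AXIN2, RNF43, ZNRF3, CTNNB1, LEF1 and TCF7. This gave 55 genes of the 24358 in the table, namely 18 ligands, 10 frizzled receptors, 4 co-receptors or ROR kinases, 5 secreted frizzled-related proteins, WIF1 and NOTUM, 4 dickkopfs, 4 R-spondins, 2 LGR receptors, 3 feedback genes and 3 nuclear effectors. WNT4 and LGR6, a further LGR receptor on the list, were not analysed here.

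The uterine tissue was taken on the mesometrial side from 9 gilts of the Yorkshire breed, 3 for each reproductive state. Gilts of the first group were pregnant for 12 days after natural mating (GD12), those of the second were pregnant for 15 days (GD15), and those of the third were unmated and on day 15 of the estrous cycle (CD15). From each gilt the inner circular muscle layer (CM) and the outer longitudinal muscle layer (LM) were collected after the endometrium had been cut away frozen, which gave 18 libraries in 6 groups of 3. Levels are in TPM, a share of all transcripts corrected for gene length and scaled to the same total in each library, so values can be set side by side between genes. TPM do not hold the read depth behind them, and read depth was not used here. In the lists of values the gilts follow in the order 1, 2 and 3.

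Wnt proteins are lipid-modified secreted ligands that bind frizzled receptors. With LRP5 or LRP6 as co-receptor they stabilise beta-catenin, which acts with LEF1 and TCF7 on target genes such as AXIN2, while WNT5A and the ROR kinases are known for signalling without beta-catenin. SFRP proteins, FRZB and WIF1 bind Wnt ligands outside the cell, NOTUM removes their lipid, dickkopfs such as DKK1 block the co-receptor, and R-spondins acting through LGR receptors keep frizzled receptors on the membrane by restraining RNF43 and ZNRF3. In the mouse uterus, Wnt signals between epithelium and stroma take part in gland formation and in the development of the muscle layers.

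The layers were first checked for the cells they held. Smooth muscle markers were abundant in both layers, with a summed level of 8 markers of 12216 to 34855 TPM in the CM libraries and of 13950 to 49309 TPM in the LM libraries. The lowest LM value was that of gilt 3 of CD15. All other LM libraries were at 35328 TPM or more, above every CM library. Markers of luminal and glandular epithelium were present too, mostly in CM. The sum of 10 of the 12 listed markers was 986 to 2436 TPM in CM and 9.42 to 698 TPM in LM, and the 9 markers that were tested were all higher in CM in each state, while CLDN7 was near 0 in both layers. Ciliated cell markers summed to 112 to 271 TPM in CM and 6.86 to 54.5 TPM in LM. Mesothelial markers, from the outer surface of the uterus, summed to 103 to 280 TPM in CM and 112 to 425 TPM in LM for the 4 of 8 markers in the table. A difference between layers in bulk tissue does not tell whether there were more cells of a type or more RNA per cell. Each layer result below stands beside these differences in epithelial and smooth muscle markers, whose part in it was not tested.

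Among the LM libraries, 2 stood apart. The LM library of gilt 2 of GD15 had the epithelial sum of 698 TPM, against 9.42 and 22.9 TPM in the other LM libraries of GD15. In the LM library of gilt 3 of CD15, ribosomal protein genes took 13.4% of all TPM, while they took 2.82% to 5.02% elsewhere among the 17 remaining libraries. The 55 Wnt genes together took 0.134%, against a range of 0.218% to 0.363% elsewhere. That library was the lowest of the 9 LM libraries for 23 of the 42 Wnt genes that were tested (54.8%), and for 44.3% of all genes tested.

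Of the 55 genes, 42 reached 1 TPM in at least 3 libraries and were tested. The other 13 never exceeded 1.68 TPM, and 9 of them were ligands: WNT1, WNT3A, WNT7A, WNT7B, WNT8A, WNT9B, WNT10A, WNT10B and WNT16. The remaining genes at this low level were FZD9, DKK4, RSPO2 and RSPO4. WNT1 was listed above 0 in 1 library.

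Layer comparisons asked which Wnt genes differed between CM and LM of the same gilts in each state. In all 3 states more Wnt genes were higher in CM than lower, as was also so for all genes tested. The Wnt genes lower in CM were led by the secreted modulators SFRP2 and DKK2. A gene was called where limma gave a Benjamini-Hochberg adjusted p below 0.05 over all genes tested and an absolute log2 fold change above 1. In GD12, 16 of the 42 genes were called, 14 higher and 2 lower in CM, which is 38.1% where 15.9% of all 15343 genes tested were called (13.4% higher and 2.43% lower). In GD15, 15 were called, 12 higher and 3 lower (35.7%, against 14.4% of all genes, of which 10.9% higher and 3.56% lower). In CD15, 13 were called, 10 higher and 3 lower (31.0%, against 12.7% of all genes, of which 11.8% higher and 0.893% lower).

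The CM values were shifted up for the genome as a whole. The median log2 fold change of all genes tested was 0.23 in GD12, 0.19 in GD15 and 0.33 in CD15, and that of the 42 Wnt genes was 0.54, 0.32 and 0.37. Scaling the libraries by their median ratio brought the medians of all genes to 0.00, 0.02 and -0.01. The Wnt genes called were then 12 higher and 3 lower in GD12, 8 higher and 3 lower in GD15, and 4 higher and 3 lower in CD15. Of all 15343 genes tested, 1692 were then called higher and 726 lower in GD12. The counts of all genes were 1391 and 807 in GD15 and 1185 and 384 in CD15. After quantile normalization the split in GD12 was 10 higher and 3 lower, where 1336 of all genes were higher and 926 lower. No gene called in a layer comparison changed direction under any alternative that was run. Besides the co-receptors and ROR kinases, alternatives added calls for LGR5 and RSPO3 in GD12, FRZB in GD15 and FZD8 and RNF43 in CD15.

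**Figure D1:**
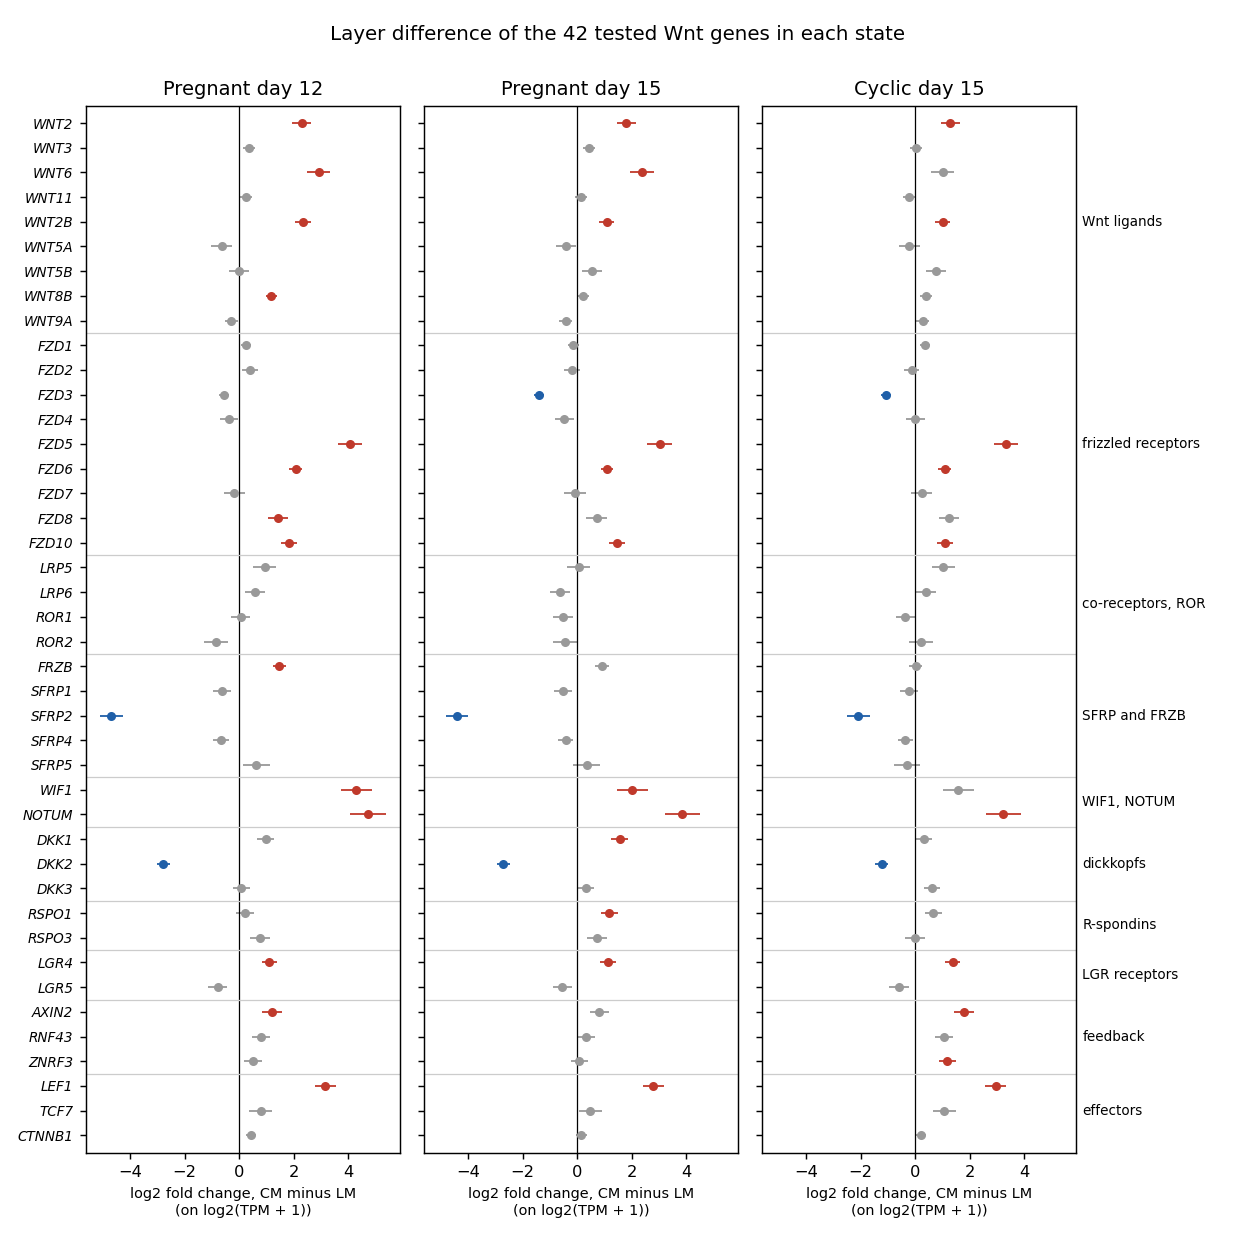
Log2 fold change of CM minus LM on the log2(TPM + 1) scale (x axis) for the 42 tested Wnt genes (y axis, grouped by role) in GD12, GD15 and CD15. Points are estimates and bars their standard error, with genes called higher in CM in red, called lower in blue and not called in grey; 8 genes were called higher in all 3 states and DKK2 and SFRP2 lower in all 3.

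Over the 3 states, 20 of the 42 genes were called in at least 1, where 23.4% of all genes tested were. The 8 genes called higher in CM in every state were the ligands WNT2 and WNT2B, the receptors FZD5, FZD6 and FZD10, the R-spondin receptor LGR4, the Wnt deacylase NOTUM and the nuclear effector LEF1, where 6.47% of all genes were called higher in every state. The 2 genes called lower in every state were SFRP2 and DKK2, where 0.482% of all genes were. Within single gilts, 13 Wnt genes were higher in CM in all 9 gilts (24.8% of all genes) and 3, namely DKK2, FZD3 and SFRP2, were lower in all 9 (3.25% of all genes).

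Ligand transcripts were more abundant in CM, and a different ligand led in each layer. The 18 ligands together were at 81.0 to 152 TPM in the CM libraries and at 31.5 to 106 TPM in the LM libraries, and the sum was higher in CM in each of the 9 gilts. WNT2 was the most abundant ligand in all 9 CM libraries, with 21.5% to 43.5% of the ligand sum. WNT5A led in 7 of the 9 LM libraries.

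**Figure D2:**
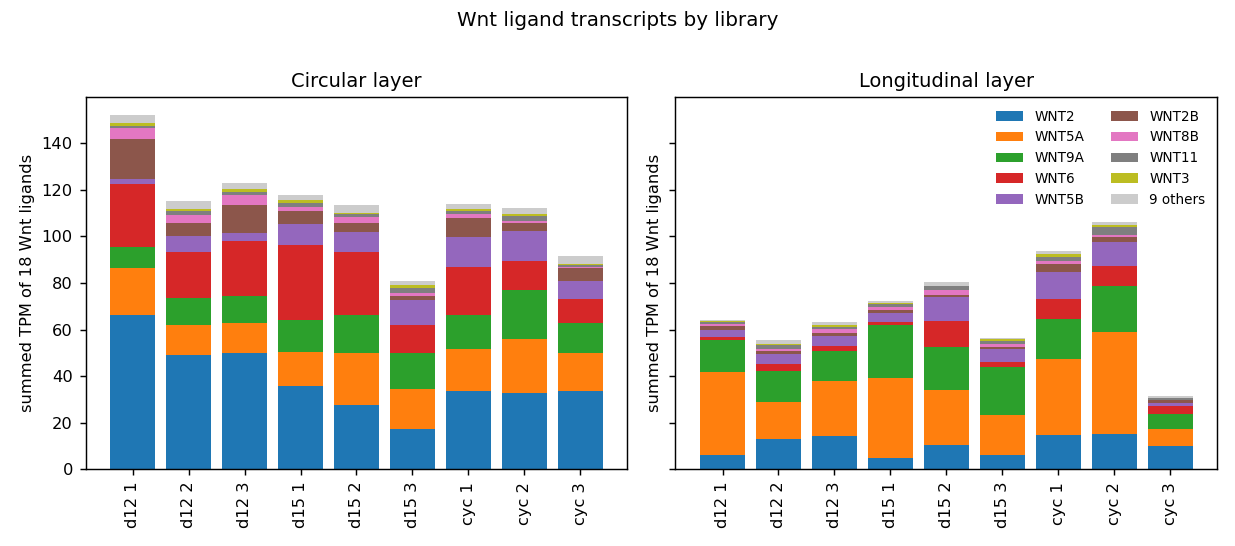
Summed TPM of the 18 Wnt ligands (y axis) in each CM library (left) and LM library (right), with d12 for GD12, d15 for GD15, cyc for CD15 and the gilt number after it. Colours stack the 9 tested ligands and the 9 untested ones; WNT2 is the largest share in all 9 CM libraries, and the LM library of gilt 3 of CD15 has the lowest sum, 31.5 TPM.

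WNT2, a ligand of mesenchymal tissue in the mouse, was in CM at 66.2, 49.2 and 49.99 TPM in GD12, 35.7, 27.4 and 17.4 TPM in GD15 and 33.6, 32.5 and 33.6 TPM in CD15. In LM, WNT2 was at 6.07, 12.8 and 14.2 TPM in GD12, 4.65, 10.4 and 6.17 TPM in GD15 and 14.6, 15.0 and 10.05 TPM in CD15. No LM library reached the lowest CM library. The log2 fold change of WNT2 was 2.29 ± 0.35, adjusted p = 0.0014 in GD12, 1.79 ± 0.35, adjusted p = 0.0063 in GD15 and 1.29 ± 0.35, adjusted p = 0.032 in CD15. The call in CD15 was lost under median-ratio scaling and without any 1 of its 3 gilts, and that in GD15 without gilt 1.

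WNT2B, the closest relative of WNT2, had the same direction at a lower level. Its CM values were 16.9, 5.51 and 12.0 TPM in GD12, 5.73, 3.79 and 1.89 TPM in GD15 and 8.14, 3.60 and 5.34 TPM in CD15. Its LM values were 1.58, 1.09 and 1.17 TPM in GD12, 1.44, 1.15 and 0.893 TPM in GD15 and 3.44, 2.19 and 1.34 TPM in CD15. The layers did not overlap within any state, and the lowest CM value was that of gilt 3 of GD15. The log2 fold change was 2.34 ± 0.29, adjusted p = 0.00044 in GD12 and was closer to the threshold in the other states, with 1.08 ± 0.29, adjusted p = 0.027 in GD15 and 1.001 ± 0.29, adjusted p = 0.04 in CD15, where median-ratio scaling ended both calls. Leaving out gilt 1 or gilt 2 of GD15, or gilt 1 or gilt 3 of CD15, also ended the call of that state.

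WNT6, a ligand made by epithelia in many tissues, was in CM at 27.0, 19.9 and 23.8 TPM in GD12, 32.2, 27.2 and 11.8 TPM in GD15 and 20.6, 12.7 and 10.2 TPM in CD15. In LM, WNT6 was at 1.44, 3.12 and 2.40 TPM in GD12, 1.36, 11.4 and 2.002 TPM in GD15 and 8.93, 8.54 and 3.37 TPM in CD15. The LM library of gilt 2 of GD15, which had the epithelial sum of 698 TPM, was far above the other LM libraries of its group and nearly at the level of the lowest CM library of GD15. The log2 fold change of WNT6 was 2.91 ± 0.43, adjusted p = 0.0012 in GD12 and 2.36 ± 0.43, adjusted p = 0.0047 in GD15, and it did not pass in CD15 (1.0001 ± 0.43, adjusted p = 0.14). WNT8B was called in GD12 alone, where it was at 4.84, 3.37 and 4.24 TPM in CM and at 1.08, 0.953 and 1.83 TPM in LM (1.18 ± 0.22, adjusted p = 0.004). Its levels in the other states, at most 2.48 TPM, overlapped between layers, with values of 0.20 ± 0.22 in GD15 and 0.38 ± 0.22 in CD15. WNT8B lost its call in GD12 after quantile normalization and with a pseudocount of 5.

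The other 5 tested ligands were not called between layers. WNT5A, the main ligand of signalling without beta-catenin, ranged over 12.6 to 23.5 TPM in CM and 7.30 to 44.0 TPM in LM, with log2 fold changes of -0.64 ± 0.38, -0.41 ± 0.38 and -0.22 ± 0.38 in GD12, GD15 and CD15. WNT9A ranged over 8.84 to 20.8 TPM in CM and 6.28 to 22.7 TPM in LM. WNT5B lay at 2.43 to 13.0 TPM in CM and 1.46 to 11.4 TPM in LM. WNT11 and WNT3 did not exceed 3.52 and 1.34 TPM in any library.

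Frizzled receptors divided into a group higher in CM, 1 receptor higher in LM and a group that was not called. FZD1 was the most abundant in all 18 libraries and was among those not called. FZD5, FZD6 and FZD10 were higher in CM in all 3 states, FZD8 in GD12, and FZD3 was lower in CM in GD15 and CD15.

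FZD5, a receptor that signals through beta-catenin, was in CM at 34.3, 19.3 and 41.6 TPM in GD12, 28.4, 60.0 and 20.1 TPM in GD15 and 44.1, 39.8 and 57.2 TPM in CD15. In LM, FZD5 was at 1.21, 1.23 and 0.366 TPM in GD12, 0.921, 15.5 and 1.25 TPM in GD15 and 6.29, 3.64 and 2.096 TPM in CD15. Every CM library was above every LM library, and the highest LM value belonged to gilt 2 of GD15. Log2 fold changes of FZD5 were 4.05 ± 0.45, adjusted p = 0.0003 in GD12, 3.02 ± 0.45, adjusted p = 0.0018 in GD15 and 3.33 ± 0.45, adjusted p = 0.0016 in CD15. These calls held under every alternative that was run.

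FZD6, a receptor best known for cell polarity, was in CM at 59.8, 40.1 and 30.1 TPM in GD12, 42.5, 73.0 and 44.6 TPM in GD15 and 89.2, 45.3 and 89.8 TPM in CD15. In LM, FZD6 was at 11.10, 13.8 and 4.86 TPM in GD12, 15.4, 37.6 and 23.1 TPM in GD15 and 39.3, 28.3 and 32.9 TPM in CD15. Within each state the layers did not overlap, although LM of CD15 reached into the range of CM of GD12. FZD6 gave log2 fold changes of 2.07 ± 0.23, adjusted p = 0.00033 in GD12, 1.09 ± 0.23, adjusted p = 0.011 in GD15 and 1.08 ± 0.23, adjusted p = 0.013 in CD15, and median-ratio scaling ended the calls in GD15 and CD15. The GD15 call was also lost without gilt 1, and the CD15 call without gilt 1 or gilt 3.

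FZD10 was a low receptor in both layers. Its CM values were 5.58, 3.18 and 4.31 TPM in GD12, 6.34, 5.99 and 5.07 TPM in GD15 and 7.09, 6.72 and 3.39 TPM in CD15. Its LM values were 0.318, 1.016 and 0.283 TPM in GD12, 1.12, 1.53 and 1.88 TPM in GD15 and 3.77, 1.45 and 1.37 TPM in CD15. In CD15 the layers overlapped, since CM of gilt 3 was below LM of gilt 1. Log2 fold changes of FZD10 were 1.81 ± 0.29, adjusted p = 0.002 in GD12, 1.45 ± 0.29, adjusted p = 0.0078 in GD15 and 1.10 ± 0.29, adjusted p = 0.03 in CD15, the last lost under median-ratio scaling and without any 1 of the 3 gilts of CD15. The GD15 call was lost without gilt 1.

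FZD8 was in CM at 24.1, 25.3 and 20.1 TPM in GD12, 30.8, 22.4 and 15.8 TPM in GD15 and 38.6, 32.3 and 26.6 TPM in CD15. In LM, FZD8 was at 7.94, 8.68 and 7.43 TPM in GD12, 13.0, 14.7 and 12.1 TPM in GD15 and 20.7, 27.5 and 3.53 TPM in CD15. The layers were apart in GD12 and GD15 and overlapped in CD15, where CM of gilt 3 lay below LM of gilt 2. FZD8 passed in GD12 (1.42 ± 0.37, adjusted p = 0.023), where leaving out any 1 of the 3 gilts ended the call, but neither in GD15 (0.71 ± 0.37, adjusted p = 0.23) nor in CD15 (1.23 ± 0.37, adjusted p = 0.05).

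FZD3, a receptor known for axon guidance and cell polarity, was the only frizzled called lower in CM. In CM it was at 8.73, 10.6 and 9.42 TPM in GD12, 5.75, 9.25 and 4.58 TPM in GD15 and 14.7, 16.5 and 16.1 TPM in CD15. LM held it at 16.2, 16.7 and 11.5 TPM in GD12, 17.3, 23.9 and 14.7 TPM in GD15 and 34.7, 28.3 and 40.1 TPM in CD15. The layers did not overlap in any state, and the CD15 values were the highest of each layer. FZD3 had values of -0.57 ± 0.19, adjusted p = 0.058 in GD12, which did not pass, -1.41 ± 0.19, adjusted p = 0.0011 in GD15 and -1.06 ± 0.19, adjusted p = 0.0048 in CD15. The call in CD15 was lost without gilt 3 of CD15, whose LM library stood apart.

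FZD1 was in CM at 252, 131 and 138 TPM in GD12, 134, 127 and 127 TPM in GD15 and 249, 209.7 and 180.3 TPM in CD15. In LM, FZD1 was at 170.4, 126 and 128 TPM in GD12, 154, 141 and 134 TPM in GD15 and 197, 218 and 105 TPM in CD15. The layers overlapped, with log2 fold changes of 0.24 ± 0.20, -0.14 ± 0.20 and 0.35 ± 0.20 in GD12, GD15 and CD15. FZD2, FZD4 and FZD7 were not called either, and lay at 28.7 to 99.5 TPM, 17.7 to 36.7 TPM and 30.4 to 77.4 TPM in CM, in that order.

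None of the 4 co-receptors and ROR kinases was called in a layer comparison with all data. Under single alternatives ROR2 was called lower in CM in GD12 (median-ratio scaling), LRP5 higher in CD15 (without gilt 2) and ROR1 lower in CD15 (without gilt 3). LRP5, the most abundant by mean level, was in CM at 237, 138 and 202 TPM in GD12, 111, 103 and 87.0 TPM in GD15 and 149, 121 and 85.5 TPM in CD15. In LM it was at 106, 92.7 and 96.0 TPM in GD12, 100.02, 103 and 85.7 TPM in GD15 and 109.7, 127 and 12.3 TPM in CD15. The value of gilt 3 of CD15 was far below all other LM values, and the log2 fold change was 0.93 ± 0.42, adjusted p = 0.16 in GD12, 0.05 ± 0.42, adjusted p = 0.95 in GD15 and 1.025 ± 0.42, adjusted p = 0.12 in CD15. ROR2, the receptor kinase for WNT5A, was the leading gene of the 4 in 7 of the 9 LM libraries and in 1 of the 9 CM libraries, with 10.9 to 173 TPM in LM and 43.0 to 142 TPM in CM. LRP6 and ROR1 did not exceed 53.5 and 20.0 TPM.

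Secreted Wnt inhibitors, with DKK2 counted among them, differed between layers in opposite directions. SFRP2 and DKK2 were lower in CM in every state, NOTUM was higher in every state, WIF1 was higher in GD12 and GD15, FRZB was higher in GD12 and DKK1 was higher in GD15.

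SFRP2 (secreted frizzled-related protein; chromosome 8, 75337311 to 75345926, ENSSSCG00000009004, Sscrofa11.1) was the leading SFRP gene in all 9 LM libraries. Its LM level was 533, 247 and 395 TPM in GD12, 629, 433 and 389 TPM in GD15 and 383, 611 and 115 TPM in CD15. Its CM level was 22.6, 18.8 and 5.56 TPM in GD12, 23.7, 20.4 and 20.5 TPM in GD15 and 54.6, 119 and 52.4 TPM in CD15. In both pregnant states every LM library was at least 10-fold above every CM library, and in CD15 the LM value of gilt 3 was just below the CM value of gilt 2. The log2 fold change was -4.69 ± 0.41, adjusted p = 0.00014 in GD12, -4.40 ± 0.41, adjusted p = 0.00041 in GD15 and -2.09 ± 0.41, adjusted p = 0.0081 in CD15. Without gilt 1 of CD15, the CD15 value was -1.74 with an adjusted p of 0.052.

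DKK2 (chromosome 8, 114862056 to 114974327, ENSSSCG00000032094), a dickkopf that can block or weakly activate the co-receptor depending on the context, was in LM at 63.8, 47.8 and 59.5 TPM in GD12, 69.9, 57.3 and 66.3 TPM in GD15 and 55.8, 62.4 and 45.5 TPM in CD15. In CM, DKK2 was at 7.39, 8.74 and 6.22 TPM in GD12, 15.7, 6.30 and 7.07 TPM in GD15 and 20.2, 24.9 and 22.8 TPM in CD15. The highest CM library was below the lowest LM library over all 18. For DKK2 the log2 fold change was -2.78 ± 0.24, adjusted p = 0.00014 in GD12, -2.72 ± 0.24, adjusted p = 0.00033 in GD15 and -1.23 ± 0.24, adjusted p = 0.0077 in CD15, and these calls held under every alternative that was run. Summed markers of smooth muscle, stromal fibroblasts and mesothelium also had a higher median in LM, at 39034, 31912 and 252 TPM, than in CM, at 20564, 23730 and 167 TPM. Single markers went against these sums. Of the mesothelial genes, BNC1 was called higher in CM in GD12 (2.19 ± 0.45) and CD15 (2.11 ± 0.45), and KRT7 in GD12 (1.10 ± 0.27). Of the fibroblast genes, PDGFRA was called higher in CM in GD12, GD15 and CD15 (2.48 ± 0.37, 1.62 ± 0.37 and 1.38 ± 0.37). PI16 was called higher in GD12 (4.92 ± 0.71) and GD15 (4.13 ± 0.71), while MFAP5 was called lower in GD15 (-1.01 ± 0.29). The part of these cells in the levels of SFRP2 and DKK2 was not tested.

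**Figure D3:**
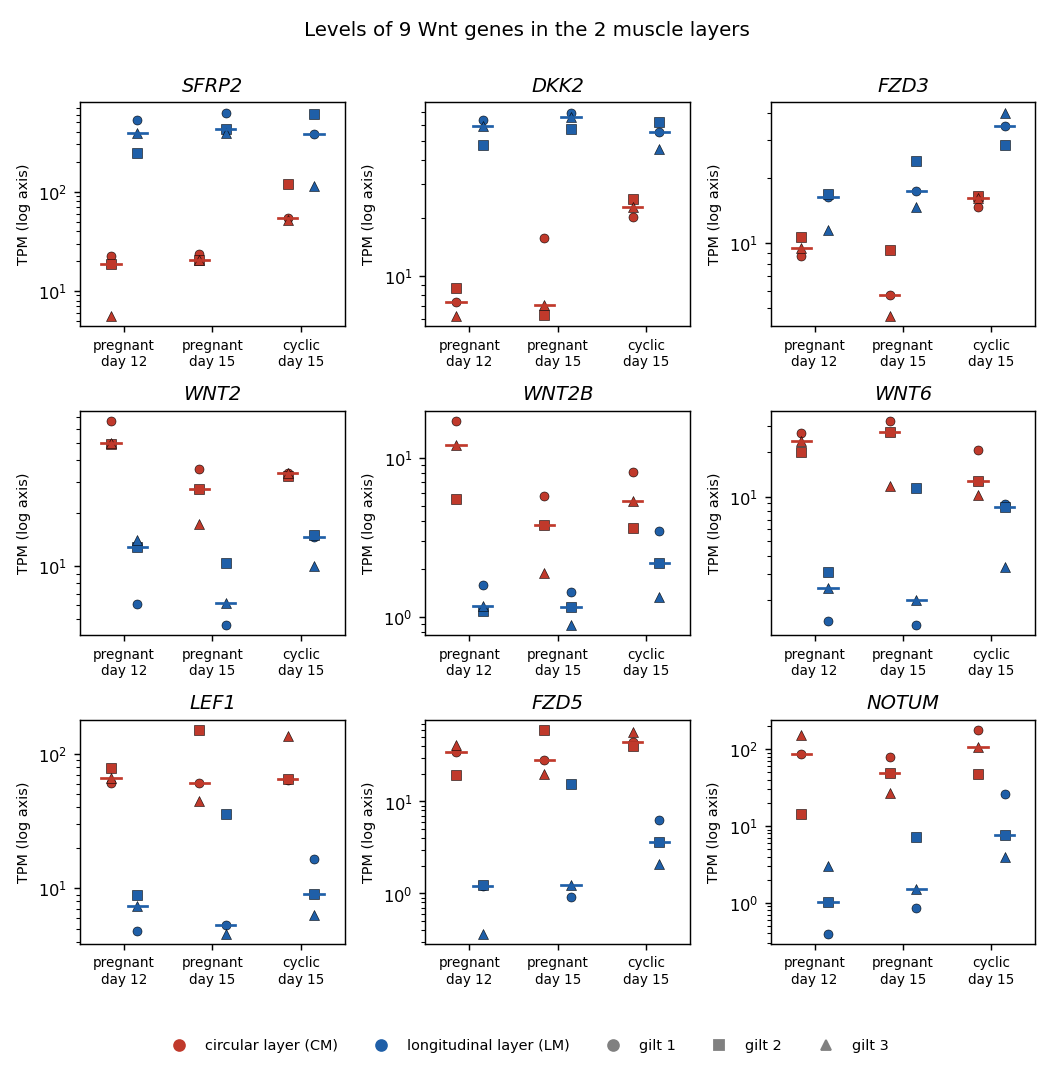
TPM on a log axis (y) of 9 Wnt genes in CM (red) and LM (blue) by state (x axis), where each symbol is the library of 1 gilt and the line marks the median of 3. SFRP2, DKK2 and FZD3 have the higher median in LM in every state, and in the other 6 genes all 3 CM libraries are above all 3 LM libraries in every state.

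NOTUM (chromosome 12, 1033814 to 1044412, ENSSSCG00000039013), the secreted deacylase, was in CM at 87.3, 14.5 and 152 TPM in GD12, 80.0, 49.9 and 26.8 TPM in GD15 and 179, 47.2 and 106 TPM in CD15. In LM, NOTUM was at 0.395, 1.024 and 3.03 TPM in GD12, 0.850, 7.18 and 1.51 TPM in GD15 and 26.2, 7.61 and 3.91 TPM in CD15. The layers did not overlap in any state, but the CM values of GD12 themselves spread about 10-fold, with gilt 2 the lowest. Log2 fold changes of NOTUM were 4.72 ± 0.65, adjusted p = 0.00081 in GD12, 3.85 ± 0.65, adjusted p = 0.0033 in GD15 and 3.22 ± 0.65, adjusted p = 0.0094 in CD15.

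WIF1, a secreted protein that binds Wnt ligands, was in CM at 155, 10.7 and 46.4 TPM in GD12, 8.73, 9.13 and 7.14 TPM in GD15 and 20.2, 15.7 and 7.69 TPM in CD15. In LM, WIF1 was at 1.35, 1.35 and 1.08 TPM in GD12, 0.537, 3.94 and 0.598 TPM in GD15 and 4.52, 6.33 and 1.89 TPM in CD15. Gilt 1 of GD12 had by far the highest value, and the layers did not overlap within a state. Log2 fold changes of WIF1 were 4.29 ± 0.57, adjusted p = 0.00071 in GD12, 2.02 ± 0.57, adjusted p = 0.036 in GD15 and 1.57 ± 0.57, adjusted p = 0.09 in CD15. The GD15 call was lost without any 1 of the 3 gilts.

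FRZB, also named SFRP3, was in CM at 78.9, 55.2 and 53.7 TPM in GD12, 53.5, 78.1 and 43.3 TPM in GD15 and 100.4, 97.1 and 102 TPM in CD15. In LM it was at 29.3, 22.4 and 15.4 TPM in GD12, 49.9, 32.4 and 16.1 TPM in GD15 and 95.0, 112 and 91.8 TPM in CD15. The layers were apart in GD12, where the log2 fold change was 1.46 ± 0.25, adjusted p = 0.0025. In GD15 the value was 0.90 ± 0.25, adjusted p = 0.03, under the fold threshold, and in CD15 it was 0.01 ± 0.25, adjusted p = 0.99, with both layers near the same high level. SFRP1, SFRP4 and SFRP5 were not called in any state, and SFRP1 was the most abundant of the 5 genes in 7 of the 9 CM libraries.

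DKK1, the main soluble inhibitor of LRP5 and LRP6, was the most abundant dickkopf by mean level. In CM it was at 178, 502 and 238 TPM in GD12, 527, 1091 and 750.3 TPM in GD15 and 112, 224 and 292 TPM in CD15. In LM it was at 63.5, 249 and 174 TPM in GD12, 105, 403 and 404 TPM in GD15 and 104, 116 and 319 TPM in CD15. The CM values of GD15 were above all other CM values of the gene and above all LM values. The layers differed in GD15 (1.55 ± 0.31, adjusted p = 0.0077), while GD12 did not pass (0.97 ± 0.31, adjusted p = 0.051) and neither did CD15 (0.31 ± 0.31, adjusted p = 0.51). Without gilt 1 of GD15 the call was lost. DKK3 was not called, at 103 to 239.7 TPM in CM and 36.2 to 207 TPM in LM.

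R-spondin genes were abundant in both layers, and a layer difference was found for RSPO1 in GD15. RSPO1 (chromosome 6, 93664839 to 93690328, ENSSSCG00000032240) had the highest mean level of the 55 genes. In CM it was at 324, 491 and 346 TPM in GD12, 697, 688 and 852 TPM in GD15 and 227, 447 and 209 TPM in CD15. LM values were 306, 304 and 379.9 TPM in GD12, 279, 313 and 405 TPM in GD15 and 246, 353 and 60.8 TPM in CD15. In GD15 all CM values were above all LM values (1.17 ± 0.32, adjusted p = 0.031). In the other states the layers overlapped, with 0.21 ± 0.32, adjusted p = 0.7 in GD12 and 0.66 ± 0.32, adjusted p = 0.18 in CD15. The GD15 call was lost under median-ratio scaling and without any 1 of its 3 gilts. RSPO3 was not called and lay at 27.3 to 85.7 TPM in CM and 17.8 to 92.8 TPM in LM.

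LGR4, the R-spondin receptor, was in CM at 81.2, 71.7 and 81.2 TPM in GD12, 109, 175 and 104 TPM in GD15 and 119, 134 and 228 TPM in CD15. In LM, LGR4 was at 49.3, 31.4 and 29.1 TPM in GD12, 54.4, 70.5 and 47.7 TPM in GD15 and 64.4, 71.3 and 44.5 TPM in CD15. Every CM library was above every LM library, although the lowest CM value, of gilt 2 of GD12, only just exceeded the highest LM value. Log2 fold changes of LGR4 were 1.11 ± 0.28, adjusted p = 0.02 in GD12, 1.13 ± 0.28, adjusted p = 0.021 in GD15 and 1.37 ± 0.28, adjusted p = 0.011 in CD15. Each of the 3 calls was lost under median-ratio scaling, and also without gilt 2 or gilt 3 in GD12, any 1 gilt in GD15 and gilt 3 in CD15. LGR5 did not exceed 0.246 TPM in CM and 2.504 TPM in LM.

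Among the feedback genes, AXIN2, a scaffold of the beta-catenin destruction complex and itself a Wnt target, was in CM at 54.1, 22.9 and 50.7 TPM in GD12, 49.4, 41.1 and 26.9 TPM in GD15 and 64.1, 45.7 and 50.4 TPM in CD15. In LM, AXIN2 was at 14.2, 16.5 and 19.3 TPM in GD12, 21.4, 26.0 and 17.0 TPM in GD15 and 23.1, 22.4 and 5.78 TPM in CD15. Within each state the layers did not overlap. AXIN2 passed in GD12 (1.22 ± 0.37, adjusted p = 0.04), where the call was lost under median-ratio scaling and without gilt 1 or gilt 3, and in CD15 (1.79 ± 0.37, adjusted p = 0.01), where it held under every alternative that was run. The GD15 value was 0.81 ± 0.37, adjusted p = 0.16.

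ZNRF3, a membrane ubiquitin ligase that removes frizzled receptors, passed in CD15 alone. There it was at 49.9, 31.0 and 32.8 TPM in CM and at 23.5, 26.1 and 6.31 TPM in LM (1.17 ± 0.31, adjusted p = 0.033). The call was lost under median-ratio scaling and without gilt 1 or gilt 3. In GD12 and GD15 it was at 29.7, 21.0 and 23.7 TPM and at 25.4, 28.5 and 14.6 TPM in CM, and at 22.2, 18.0 and 12.2 TPM and at 23.9, 24.6 and 15.5 TPM in LM. RNF43, a ligase of the same kind, was not called, with 1.06 ± 0.33, adjusted p = 0.053 in CD15.

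LEF1 (chromosome 8, 113824511 to 113944078, ENSSSCG00000009148), a transcription factor that works with beta-catenin, was in CM at 61.1, 78.9 and 66.5 TPM in GD12, 61.0, 150.3 and 44.6 TPM in GD15 and 63.3, 65.3 and 136 TPM in CD15. In LM, LEF1 was at 4.84, 8.87 and 7.34 TPM in GD12, 5.36, 35.6 and 4.62 TPM in GD15 and 16.4, 9.09 and 6.34 TPM in CD15. No LM library reached the lowest CM library, and gilt 2 of GD15 was again the highest of LM. For LEF1 the log2 fold change was 3.15 ± 0.39, adjusted p = 0.00046 in GD12, 2.79 ± 0.39, adjusted p = 0.0014 in GD15 and 2.94 ± 0.39, adjusted p = 0.0016 in CD15, and the calls held under every alternative that was run.

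CTNNB1, which encodes beta-catenin, was in CM at 206, 169 and 190.2 TPM in GD12, 173, 217 and 204 TPM in GD15 and 226, 220.2 and 231 TPM in CD15. In LM, CTNNB1 was at 149, 135 and 136 TPM in GD12, 169, 187 and 175 TPM in GD15 and 249, 216 and 143 TPM in CD15. In GD12 all CM values were above all LM values, while in GD15 and CD15 the layers overlapped. The log2 fold changes were 0.42 ± 0.19, 0.15 ± 0.19 and 0.20 ± 0.19 in the 3 states, none of which passed. TCF7 did not pass either and did not exceed 8.49 TPM.

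The LM library of gilt 2 of GD15 bears on the layer results of that state. It was the highest of the 3 LM libraries of GD15 for 8 of the 12 Wnt genes called higher in CM there, where 52.4% of all genes tested were highest in it. FZD5 was 12.4 times, LEF1 6.64 times, WIF1 6.60 times, WNT6 5.69 times and NOTUM 4.75 times the higher of the other 2 LM values. SFRP2 and DKK2 in that library were at 0.688 and 0.820 times the highest LM value of the group, whereas FZD3, the remaining gene lower in CM, was highest in it, at 1.38 times the higher of the other 2 LM values. Without gilt 2, 11 Wnt genes were called in GD15, where 10.3% of all genes were, and LGR4, RSPO1, WIF1 and WNT2B were no longer among them. With gilt 3 of CD15 left out as well, 14 were called in GD15, and WNT2B alone was lost. Of all 15001 genes tested then, 1644 were higher and 714 lower. Without gilt 1 of GD15, 8 Wnt genes were called, where 8.31% of all genes were.

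**Figure D4:**
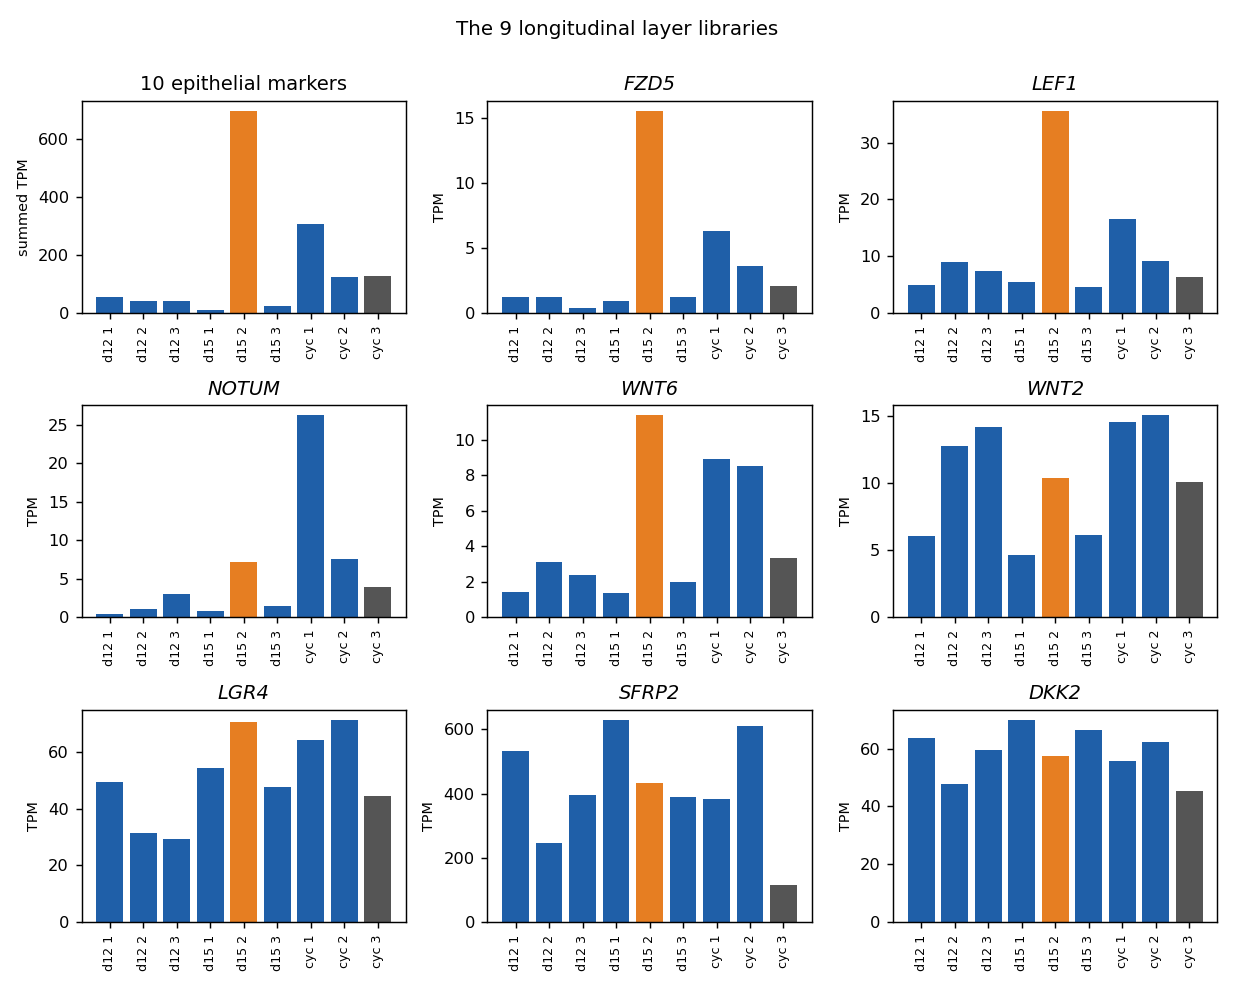
Summed TPM of 10 epithelial markers and TPM of 8 Wnt genes (y axes) in the 9 LM libraries (x axis, labelled by state and gilt as d12, d15 and cyc). The orange bar is gilt 2 of GD15 and the dark grey bar is gilt 3 of CD15; FZD5 at 15.5 TPM and LEF1 at 35.6 TPM are highest in the orange bar, while SFRP2 and DKK2 are lowest in the dark grey bar.

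The state comparisons asked how each layer differed between days of pregnancy and between pregnancy and the cycle. They used the 9 libraries of a layer, where 41 Wnt genes were tested in CM (not LGR5) and 41 in LM (not WNT3), and the comparisons within a layer share libraries with each other. No Wnt gene passed in CM. At an unadjusted p below 0.05 there were 12 of 41 genes between GD15 and GD12, 10 between GD15 and CD15 and 13 between GD12 and CD15, where 15.5%, 15.2% and 17.7% of all genes were below it. Of all genes 0.027%, 0.155% and 0.216% were called in these comparisons. Leaving out gilt 1 of GD15 gave 1 call each for WNT2 between GD15 and GD12, where 2.41% of all genes were then called, and for DKK2 between GD15 and CD15, where 0.462% were. Leaving out gilt 2 gave 1 for FZD3 between GD15 and CD15, where 0.103% were.

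Levels in CM without overlap between states were counted for the Wnt genes and for all genes. Between GD15 and GD12, 7 of 41 genes had all 3 GD15 libraries higher (11.1% of all genes) and 5 had them lower (7.45%). Between GD15 and CD15, 2 of 41 genes, DKK1 and RSPO1, had all GD15 libraries higher, a smaller share than the 8.07% of all genes. In the other direction, 9 of 41 had them lower, a larger share than the 11.9% of all genes. Between GD12 and CD15, 4 genes were higher in all GD12 libraries (7.91%) and 13 lower (22.2%). These counts were not tested against those of all genes. RSPO1 in CM, listed above, had its 3 highest values in GD15, with 1.42 ± 0.29, adjusted p = 0.11 against CD15 and 0.96 ± 0.29, adjusted p = 0.18 against GD12. For DKK1, also highest in GD15, the values were 1.95 ± 0.46, adjusted p = 0.14 against CD15 and 1.45 ± 0.46, adjusted p = 0.19 against GD12. The summed level of 6 endometrial stroma markers in CM was also highest in GD15, at 1727 to 2061 TPM against 1021 to 1537 TPM in GD12 and 1105 to 1427 TPM in CD15. This sum was apart between the layers in GD15 alone, with 998 to 1208 TPM in LM. Single markers went against GD15 alone. HAND2 was called higher in CM in GD12 (2.01 ± 0.31) as well as in GD15 (2.496 ± 0.31). FOXF2 was called higher in GD12 (1.004 ± 0.22) and not in GD15 (0.499 ± 0.22). Neither passed in CD15. The other 4 of the 6 markers, VIM, HOXA10, HOXA11 and HSD11B1, passed in no state. VIM was at -0.26 ± 0.25, 0.83 ± 0.25 and -0.11 ± 0.25 in GD12, GD15 and CD15. Which marker carried the sum was not tested. The part of endometrial stroma in the values of RSPO1 and DKK1, whose layer calls were in GD15, was not tested.

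SFRP2 and DKK2 in CM had all values in cyclic gilts above all those in pregnant gilts, and neither passed the test. For SFRP2 the log2 fold change was -2.29 ± 0.47, adjusted p = 0.075 between GD12 and CD15 and -1.66 ± 0.47, adjusted p = 0.17 between GD15 and CD15. For DKK2 it was -1.49 ± 0.30, adjusted p = 0.075 and -1.24 ± 0.30, adjusted p = 0.15. In LM the same 2 genes differed by at most 0.66 in absolute log2 fold change between any pair of states, with standard errors of 0.58 for SFRP2 and 0.23 for DKK2.

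In LM, 1 Wnt gene passed in 1 of the 3 state comparisons. FRZB was lower in GD12 than in CD15 (-2.14 ± 0.40, adjusted p = 0.047), where 1.04% of all genes were called and 0.485% were called lower, and its GD15 value against CD15 was -1.70 ± 0.40, adjusted p = 0.17. All LM values of FRZB in pregnant gilts were below all those in cyclic gilts. The call was lost with a pseudocount of 0.1 (adjusted p = 0.051), without the filter on low values (0.065) and on leaving out 5 of the 6 libraries in turn. Between GD15 and GD12, 0 genes passed here and 0% of all genes did, with 2 of 41 Wnt genes and 4.93% of all genes at an unadjusted p below 0.05. Between GD15 and CD15, 0 Wnt genes passed, where 0.178% of all genes did, with 4 Wnt genes and 12% of all genes at an unadjusted p below 0.05.

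Levels in LM without overlap were counted in the same way. Between GD15 and GD12, 9 of 41 genes had all GD15 libraries higher (20.5% of all genes) and SFRP4 had them lower (7.53%). Between GD15 and CD15, 0 genes were higher in all GD15 libraries (11.8%), and FRZB and FZD3 were lower (9.5%). Between GD12 and CD15, DKK3 was higher in all GD12 libraries (10.7%) and 8 genes were lower (16.7%).

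The LM library of gilt 3 of CD15 weighed on these counts. Without it, 9 Wnt genes were lower in GD12 than in CD15, namely FRZB, FZD3, FZD6, FZD8, LRP6, NOTUM, ROR1, TCF7 and WNT5B, where 7.95% of all genes were called lower. Between GD15 and CD15, FZD2 alone was then called, lower in GD15, where 1.31% of all genes were. With the LM library of gilt 2 of GD15 left out as well, 12 Wnt genes were lower in GD12 than in CD15 (8.87% of all genes), and WIF1 and WNT6 were lower in GD15 than in CD15 (1.27% of all genes). The epithelial marker sum in LM was 39.1 to 55.5 TPM in GD12 and 123 to 305 TPM in CD15, and its part in these differences was not tested.

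**Figure D5:**
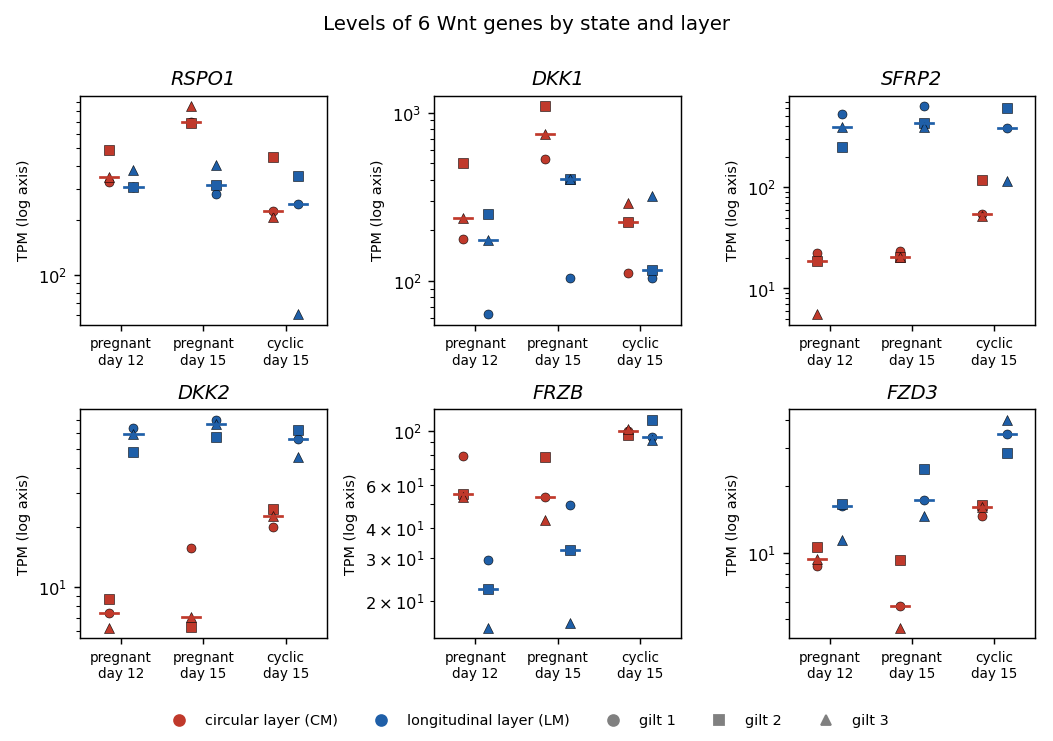
TPM on a log axis (y) of RSPO1, DKK1, SFRP2, DKK2, FRZB and FZD3 by state (x axis) in CM (red) and LM (blue), each symbol the library of 1 gilt and the line the median of 3. In CM, RSPO1 and DKK1 are highest in GD15 and SFRP2 and DKK2 are highest in CD15; in LM, FRZB is highest in CD15.

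The difference between layers was also compared between states. No Wnt gene passed, where 0.189% of all genes did for GD15 against CD15, 0.0196% for GD15 against GD12 and 0.13% for GD12 against CD15. At an unadjusted p below 0.05 there were 6, 6 and 8 of the 42 Wnt genes, and 9.4%, 6.94% and 9.22% of all genes. SFRP2 had a layer difference that was larger in GD12 than in CD15 by -2.60 ± 0.58, adjusted p = 0.22 and in GD15 than in CD15 by -2.31 ± 0.58, adjusted p = 0.24, where the negative sign means further below LM. For DKK2 the values were -1.55 ± 0.34, adjusted p = 0.22 and -1.49 ± 0.34, adjusted p = 0.19. For WIF1 the value for GD12 against CD15 was 2.72 ± 0.81, adjusted p = 0.37, and for DKK1 the value for GD15 against CD15 was 1.24 ± 0.44, adjusted p = 0.43. It is therefore not shown that any layer difference depended on the state, also where a gene passed in 1 state and not in another.

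Other genes of the pathway were read from 6 lists of 92 genes, of which 79 were tested. In GD12, 16 were called higher (20.3%, against 13.4% of all genes) and 1 lower in CM (1.27%, against 2.43%). In GD15, 7 were higher (8.86%, against 10.9%) and 3 lower (3.80%, against 3.56%), and in CD15 10 were higher (12.7%, against 11.8%) and 0 lower (0.893% of all genes). The shares called higher in GD15 and CD15 were thus near those of all genes. Their median log2 fold change was 0.17, 0.01 and 0.51 in the 3 states. None of them passed in a state comparison or in a comparison of layer differences.

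WLS, which carries Wnt proteins to the cell surface, was higher in CM in all 3 states (1.17 ± 0.20, 1.33 ± 0.20 and 1.37 ± 0.20 in GD12, GD15 and CD15). PORCN, which adds the lipid to Wnt proteins, was lower in CM in GD12 (-1.01 ± 0.25, adjusted p = 0.018). Of the 19 genes of the destruction complex and signal transduction, 0 passed in any state. In the nuclear complex, HHEX was higher in GD12 (1.08 ± 0.27, adjusted p = 0.017), the beta-catenin cofactor BCL9 was lower in GD15 (-1.32 ± 0.38, adjusted p = 0.039) and the corepressor TLE3 was higher in CD15 (1.37 ± 0.31, adjusted p = 0.016).

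Of 17 tested extracellular and membrane regulators, 6 were higher in CM in GD12, where 13.4% of all genes were. They included NDP, which encodes norrin, a ligand of FZD4 (2.40 ± 0.46), the dickkopf receptor KREMEN1 (1.95 ± 0.43), the FZD4 partner TSPAN12 (1.67 ± 0.33) and the secreted inhibitor DRAXIN (1.34 ± 0.24). KREMEN1 and NDP passed in CD15 too (1.89 ± 0.43 and 1.57 ± 0.46). They were the only genes of this list called there, where 11.8% of all genes were called higher. In GD15 the membrane inhibitor APCDD1 was higher (1.24 ± 0.29, adjusted p = 0.017) and TRABD2B, a protease that inactivates Wnt proteins, was lower (-1.71 ± 0.40, adjusted p = 0.015). No other gene of this list passed in GD15, where 10.9% of all genes were called higher and 3.56% lower. Of 14 tested polarity genes, CELSR1, a cadherin of planar cell polarity, was higher in CM in all 3 states (2.98 ± 0.55, 2.46 ± 0.55 and 2.85 ± 0.55). VANGL2, another core polarity gene, was higher in GD12 (1.37 ± 0.38) and CD15 (1.29 ± 0.38), and INTU in GD12 (1.19 ± 0.25).

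Among 17 tested targets and feedback genes, the homeobox genes MSX1 and MSX2 had the largest layer differences in GD12 and CD15, and MSX1 and CCN4 in GD15. MSX1 was higher in CM by 5.41 ± 0.67 in GD12, 4.01 ± 0.67 in GD15 and 3.39 ± 0.67 in CD15, and MSX2 by 4.72 ± 0.46, 3.02 ± 0.46 and 2.704 ± 0.46. CCN4, a matricellular protein gene, was higher in GD12 (2.48 ± 0.31) and GD15 (3.26 ± 0.31). TNFRSF19 was higher in all 3 states (1.54 ± 0.24, 1.10 ± 0.24 and 1.15 ± 0.24), and FOXL1 was higher in CD15 (1.24 ± 0.34). MYC was lower in CM in GD15 (-1.14 ± 0.33, adjusted p = 0.037). SP5 was higher in GD12 (1.51 ± 0.46, adjusted p = 0.042). The rest of the list, namely NKD1, CCND1, CD44, DACT1, DACT2, DACT3, BMP4, NFATC4, CCN5 and PRICKLE1, passed in no state.

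Position was compared with direction for neighbouring Wnt genes, in the RefSeq annotation of Sscrofa11.1. LEF1 and DKK2, which differed between layers in opposite directions, lie 918 kb apart on chromosome 8 with 4 protein-coding genes between them. WNT6 and WNT10A lie 7.85 kb apart on chromosome 15, and WNT6 reached 32.2 TPM while WNT10A did not exceed 1.08 TPM. WNT9A, at up to 22.7 TPM, lies 25.6 kb from WNT3A, which did not exceed 0.474 TPM. WNT10B and WNT1 overlap by 3.32 kb on chromosome 5 in this annotation, and both were near 0. Whether they overlap in the Ensembl annotation over which the reads were counted was not checked.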

How the data were processed

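The 18 libraries hold RNA of both muscle layers of 9 gilts. Per the labels and the methods of the study, the authors aligned the reads with HISAT2 2.1.0 to the pig assembly Sscrofa11.1 and counted over Ensembl release 93 with HTSeq 0.9.1. TPM for 24358 genes were deposited. How these TPM were computed, and whether strand was used, is not given in the sources used here. They keep no read depth, so no counting error was attached, and abundant transcripts of a library lower the TPM of its other genes.

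The TPM were put on a log2 scale after adding 1 and analysed in limma 3.58.1 (R 4.3.3) with a trend in the prior variance. Fold changes on this scale understate those of low genes. A gene was tested where 3 or more libraries reached 1 TPM. Layers, and differences of layer differences, were fitted over all 18 libraries with a block for the gilt. States were fitted within the 9 libraries of a layer, unpaired. P values were adjusted by Benjamini and Hochberg over all genes tested. CM and LM with the same number were paired as 1 gilt, since the methods give 3 gilts per state for both layers. Their deviations from the group means correlated by 0.19 to 0.53 in 9 of 9 pairs, and those of other numbers by -0.44 to 0.06. The members, gene lists and alternatives were chosen with earlier results of these data known. Values in every library are given for each member called in a comparison (WNT8B in full for the state of its call) and for the most abundant member of each class. For the lists of other pathway genes, up to 4 called genes are named per list and layer comparison, and SP5 beyond these. Positions come from the RefSeq annotation of Sscrofa11.1, by symbol, for 55 of 55 genes. The fits were tested on simulated data with known changes and independent noise. These data held no gilt effect and no library that stood apart, so how the fits handle either was not tested.

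Another pseudocount (0.1 or 5), the absence of a filter, a mean of at least 5 TPM, median-ratio scaling, quantile normalization, fits with or without a block, and the removal of single gilts or libraries were tried. The joint removal of gilt 2 of GD15 and gilt 3 of CD15 was added after seeing the data. Plots were drawn with matplotlib 3.10.9.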

Additional observations from a re-analysis of the deposited data

How the results depend on the processing

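Single values of the 42 tested genes kept their direction wherever they were called, with 372 values of called genes still called and 103 not, and 35 of the values that did not pass did so under an alternative. Called under every alternative were 11 genes in GD12 (DKK2, FRZB, FZD5, FZD6, LEF1, NOTUM, SFRP2, WIF1, WNT2, WNT2B and WNT6, where WNT2B was too low for the filter on a mean of 5 TPM), 7 in GD15 (DKK2, FZD3, FZD5, LEF1, NOTUM, SFRP2 and WNT6) and 5 in CD15 (AXIN2, DKK2, FZD5, LEF1 and NOTUM). The number of Wnt genes called between layers in CD15 was 13 with all data. It was 7 under median-ratio scaling, 8 after quantile normalization and 7 without both gilts whose LM library stood apart. Of all 15343 genes tested in CD15, 1807 were called higher and 137 lower with all data. These counts were 1185 and 384 under median-ratio scaling and 1052 and 537 after quantile normalization. Without both gilts they were 1176 and 213 of 15001. The cause of these changes was not tested. Without 1 gilt, the number of Wnt genes called was 13 to 15 in GD12, 8 to 12 in GD15 and 7 to 14 in CD15. Of the 15117 to 15286 genes tested then, 1195 to 2206 were called higher and 158 to 422 lower in GD12. The ranges for all genes were 1021 to 1226 and 246 to 434 in GD15, and 1174 to 2107 and 89 to 215 in CD15. For the states in CM, leaving out 1 library gave 0 to 1 calls between GD15 and GD12 and between GD15 and CD15. In LM it gave 0 to 1 calls between GD15 and CD15 and 0 to 9 between GD12 and CD15. Without both LM libraries that stood apart there were 2 and 12. The 1 call between GD12 and CD15 in LM became 0 with a pseudocount of 0.1, 0 without a filter and 0 with a replicate block, in which the number is shared by different gilts. Without the replicate block that paired the layers, 14 Wnt genes were called in GD12, 10 in GD15 and 10 in CD15. Of all 15343 genes, 1762 were then higher and 275 lower in GD12, 1212 and 367 in GD15, and 1421 and 88 in CD15. With 3 gilts per state and no read depth in TPM, small differences and low genes could be missed.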
